A study of Mus musculus with 24 samples.

Results

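Slc5a7, Cadps, Cdhr2, Pcp4, Rxfp1, Syndig1, Slitrk3, Ptpn5, Cntn1 and Sptssb are 10 genes whose transcripts differ in mean level between the perigonadal fat of male and female mice. They were taken by symbol from a raw count table of 27179 genes, and they had been picked because their counts differ between the sexes in these same libraries. The contrast of males with females is therefore given below as a description, with no test. RNA of whole visceral fat, labelled as visceral or perigonadal adipose tissue, was sequenced from male and female mice aged 27 to 33 weeks in 6 groups of 4 libraries, 24 in all. In the Pparg knockout (genotype PpargFoxp3cre) the nuclear receptor gene Pparg was deleted by Cre expressed from Foxp3, which is active in regulatory T cells. The Tbet knockout (TbetFoxp3cre) lacked T-bet, a transcription factor of T helper cells, where the same Cre acts, and controls (Foxp3cre) carried that Cre with neither deletion. All 3 genotypes thus share the Foxp3 Cre. Replicates 1 and 3 of each group are batch 1 and replicates 2 and 4 batch 2, per the sample titles. Whether each library is another animal is not stated, and the p-values below then reflect variation among libraries, which may be technical.

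The perigonadal depot is a different anatomical structure in each sex: in males it lies along the epididymis, and in females along the uterus and ovary. Most of the 10 genes are known from other tissues. Slc5a7 loads choline into cholinergic nerve endings, Cadps primes secretory vesicles, Syndig1, Slitrk3 and Cntn1 act at synapses and nerve fibres, and Ptpn5 and Pcp4 are abundant in brain. Rxfp1 is the receptor of relaxin, a hormone of pregnancy that acts on the female reproductive tract, Cdhr2 is a cadherin of microvilli, and Sptssb is a small subunit of the enzyme that starts sphingolipid synthesis. Since the only tissue sampled was perigonadal fat, the sex of the animal and the anatomy of its depot cannot be told apart, and the name of depot marker cannot be checked against another fat pad.

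The sequences just before an annotated start in 4 of the genes are shown because these genes carry the pattern. Slc5a7 and Cadps were the 2 genes whose male libraries all lay above all female libraries in every genotype, Pcp4 had the highest level per length, and Slitrk3 had 0 counts in 11 of 12 male libraries. Each sequence is the 250 bases before an annotated start, 5′ to 3′ on the strand of the gene, from RefSeq on GRCm38.p6. That start need not be the outer end of the gene. By the gene positions given below, the stretches of Cadps and Slitrk3 lie inside the gene, and the last bases of Slc5a7 do. The positions are chr17:54299035-54299284 on the minus strand for Slc5a7, chr14:12823080-12823329 on the minus strand for Cadps, chr16:96467356-96467605 on the plus strand for Pcp4, and chr3:73057067-73057316 on the minus strand for Slitrk3. Capitals mark the motifs that were searched for on both strands.
Slc5a7: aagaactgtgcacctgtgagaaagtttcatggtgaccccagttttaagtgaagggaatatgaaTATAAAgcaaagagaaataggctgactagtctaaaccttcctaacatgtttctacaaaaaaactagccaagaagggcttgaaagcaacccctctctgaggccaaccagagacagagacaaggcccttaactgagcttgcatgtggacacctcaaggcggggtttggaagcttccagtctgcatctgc
Cadps: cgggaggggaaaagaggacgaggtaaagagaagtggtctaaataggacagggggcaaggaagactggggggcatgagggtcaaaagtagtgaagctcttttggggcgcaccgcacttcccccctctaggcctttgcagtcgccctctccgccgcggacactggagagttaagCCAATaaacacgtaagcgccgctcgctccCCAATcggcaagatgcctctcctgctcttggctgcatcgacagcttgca
Pcp4: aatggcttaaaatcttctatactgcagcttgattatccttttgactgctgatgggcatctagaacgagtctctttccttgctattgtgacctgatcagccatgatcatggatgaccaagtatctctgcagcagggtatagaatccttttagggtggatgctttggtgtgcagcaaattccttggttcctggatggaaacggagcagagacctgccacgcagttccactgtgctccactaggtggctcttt
Slitrk3: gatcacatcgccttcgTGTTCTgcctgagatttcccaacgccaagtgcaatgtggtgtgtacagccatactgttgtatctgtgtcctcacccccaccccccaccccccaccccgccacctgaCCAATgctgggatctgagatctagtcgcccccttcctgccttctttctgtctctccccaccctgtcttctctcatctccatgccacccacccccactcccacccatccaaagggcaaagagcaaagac

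The capitals in Slc5a7 are TATAAA, the TATA box, and those in Cadps are CCAAT at 2 places. In Slitrk3 they are TGTTCT, which is AGAACA on the other strand, and CCAAT. The printed stretch of Pcp4 held none of the motifs. Windows of 300 bases, the 250 above and the next 50, were searched in 12 promoters of 9 of the genes, with 2 entries for Ptpn5 and 3 for Cntn1; Rxfp1 had no entry. TATAAA occurred in 2 of the 12 (Slc5a7 and Cntn1) and in 13.6% of 32851 mouse promoters. CCAAT occurred in 6 of the 12 (in Cadps, Cntn1, Pcp4, Ptpn5 and Slitrk3) and in 37.4% of all promoters, and the GC box GGGCGG in 2 (Ptpn5 and Sptssb) and in 35.7%. AGAACA, which is also contained in the androgen receptor palindrome, occurred in 2 (Cdhr2 and Slitrk3) and in 19.0%. Neither that palindrome nor the estrogen receptor palindrome was in any of the 12 windows, and they were in 0.00913% and 0.07% of all promoters. Such matches describe letters in a window and say nothing about which factor is bound.

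Library totals ran from 8345575 to 31022845 counts. Levels are given as CPM, counts scaled to the size of each library after trimmed mean of M values (TMM) normalisation. The sex labels held in all 24 libraries: 4 Y-linked genes (Ddx3y, Uty, Kdm5d and Eif2s3y) summed to 210 to 322 CPM in males, against 0.0315 to 0.817 CPM in females, and Xist to 0.0379 to 23.3 CPM in males, against 549 to 1148 CPM in females. Pparg averaged 251 ± 24.5 and 217 ± 61.2 CPM in Pparg knockout males and females, against 245 ± 26.0 and 210 ± 134 CPM in control males and females (SD, n = 4 each). Tbx21, which encodes T-bet, averaged 0.602 ± 0.526 and 1.34 ± 0.890 CPM in Tbet knockout males and females, against 1.17 ± 0.462 and 0.937 ± 0.352 CPM in control males and females (SD, n = 4 each). Other cells of whole fat express both genes, so these levels do not check the genotype labels. Fat cell markers were abundant in every library, the 12 of them summing to 34475 to 69956 CPM in males and 10478 to 54141 CPM in females. The lowest, control female replicate 1, also held 4824 CPM of 12 markers of the female reproductive tract, where the 11 other females and all males had at most 256 CPM. Of these markers, Fshr and Cyp19a1 had 0 counts in all control females. The same library held 1110 CPM of 9 motile cilia markers and 1512 CPM of 12 simple epithelium markers. The other females had at most 133 and 493 CPM of these. Tbet knockout male replicate 4 held 6112 CPM of 17 epididymis and seminal vesicle markers, where the other males had at most 244 CPM. It also held the most Xist of any male. Its Slc5a7 (85.9 CPM) and Cadps (12.2 CPM) lay inside the range of the other males. Its Cdhr2, at 17.0 CPM, was the highest of all males, with control male replicate 2 next at 11.3 CPM.

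Transcripts of 3 of the genes, Slc5a7, Cadps and Cdhr2, had the higher mean in males, and those of the other 7 in females. The low sex was mostly near 0, although Slc5a7 reached 10.2 CPM in a female. Sptssb was low in most females as well, with a median of 0.721 CPM. The separation was complete for 8 of the 10 genes over 12 males and 12 females: every library of the high sex lay above every library of the low sex. Of the 8, 2 were higher in males and 6 lower, where 0.567% of all 17824 genes tested had all 12 males above all 12 females and 1.32% all below. The exceptions were Cdhr2, where 8 of 12 males lay above the highest female, and Sptssb, where 9 of 12 females lay above the highest male. Within controls 2 genes had all males above all females and 6 had all males below, while 2 overlapped. In Pparg knockouts the counts were 3, 7 and 0, and in Tbet knockouts 3, 6 and 1. Over all genes tested, 7.84% had all males above all females in controls and 7.85% all below. In Pparg knockouts these shares were 3.97% and 5.09%, and in Tbet knockouts 5.66% and 6.78%. The genes were picked on this contrast, so nothing is read from that difference. All 10 passed the filter on low counts, most of them only through the sex in which they are high.

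**Figure D1:**
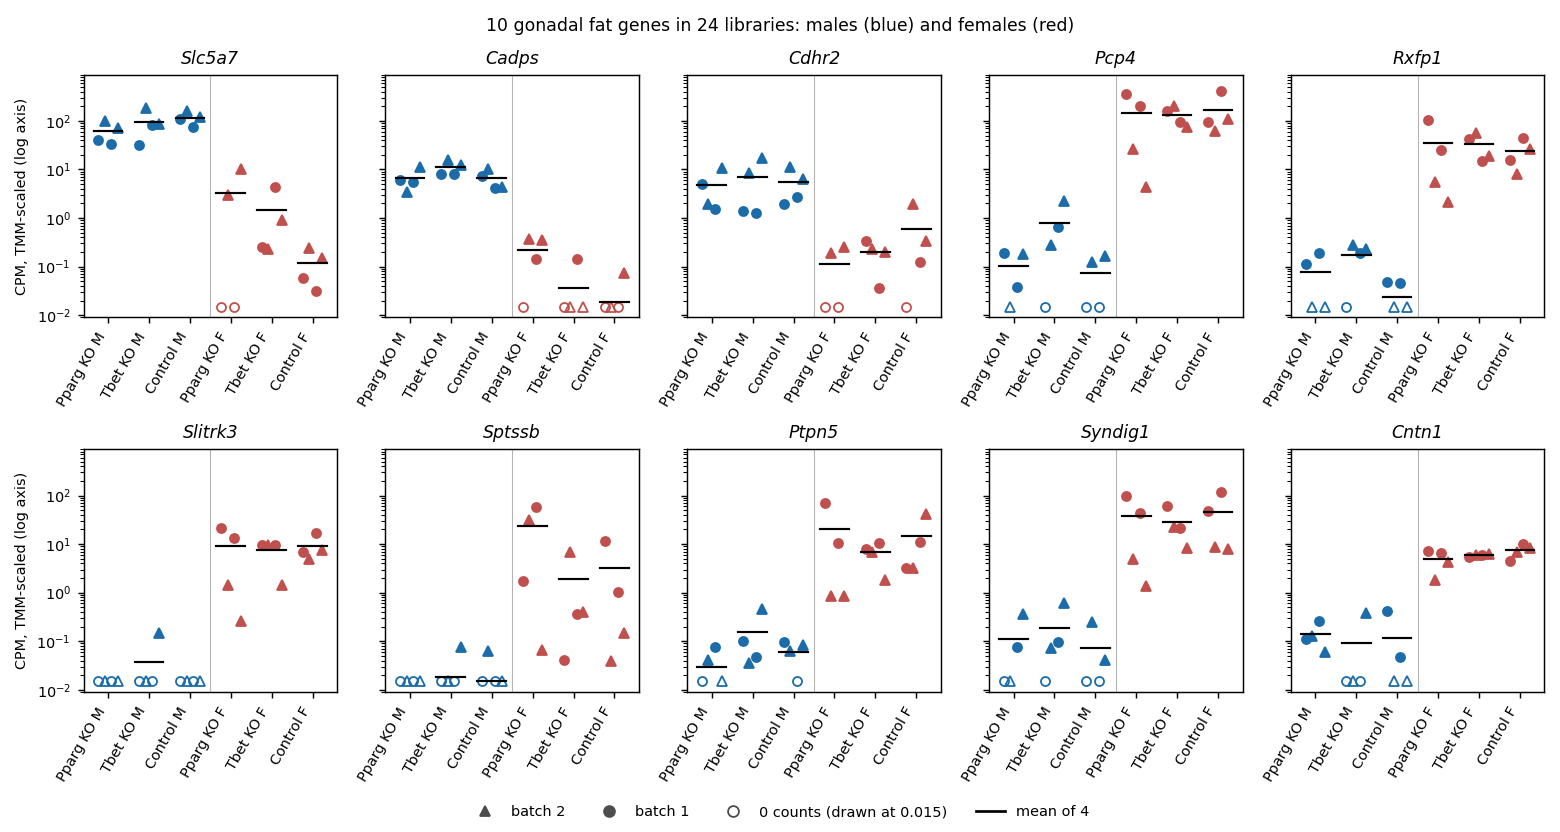
TMM-scaled CPM on a log axis for the 10 genes in the 24 libraries, males in blue on the left and females in red on the right of each panel. Circles are batch 1, triangles batch 2, open symbols libraries with 0 counts, and bars group means of 4 libraries; the 3 male-high genes and the 7 female-high genes change sides, with overlap between the sexes in Cdhr2 and Sptssb.

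Slc5a7 encodes the high-affinity choline transporter, which in nerve endings supplies choline for acetylcholine. It lies on chromosome 17 from 54273590 to 54299038 (GRCm38.p6, as for all gene positions below). In Pparg knockouts Slc5a7 had 39.9, 99.2, 33.0 and 72.0 CPM in males (replicates 1 to 4), against 0, 3.01, 0 and 10.2 CPM in females. In Tbet knockouts Slc5a7 had 31.7, 182, 80.4 and 85.9 CPM in males, against 0.248, 0.233, 4.43 and 0.909 CPM in females. Control males had 109, 160, 76.5 and 122 CPM of Slc5a7, against 0.0580, 0.238, 0.0315 and 0.150 CPM in control females. Each male was above each female, and the few females above 1 CPM were knockouts. For Slc5a7 the log2 fold change of males over females was 4.41 (SE 0.85) in Pparg knockouts, 5.39 (SE 0.91) in Tbet knockouts and 10.01 (SE 1.22) in controls. In summed counts this is 13.8-fold, 53.0-fold and 961-fold.

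The transcripts that cholinergic neurons need beside Slc5a7 were nearly missing. Chat, which makes acetylcholine, had 0 counts in all 12 males and 9 counts over the 12 females. Slc18a3, which loads acetylcholine into vesicles, had 2 counts over all males and 27 over all females. The 11 markers of neurons summed to 13.7 to 32.8 CPM in males and 13.8 to 49.6 CPM in females. Of 9 tested genes of choline transport and acetylcholine, 1 was higher and 0 were lower in control males than in control females, where 13.6% of all genes were higher and 13.6% lower (27.2% in all), and the median log2 fold change was −0.02, beside −0.04 over all genes; the other lists below are set against the same shares and median. That gene was Slc44a1, a choline transporter of most cells, at 54.6 ± 8.93 CPM in control males and 37.3 ± 18.7 CPM in control females (SD, n = 4 each; log2 fold change 0.66, SE 0.20, adjusted p = 0.0187). Slc44a4, the lowest fold change of the list, stood at −0.85 (SE 2.09, adjusted p = 0.787).

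Cadps encodes a protein that prepares dense-core vesicles for regulated release, and lies on chromosome 14 from 12372560 to 12823339. In Pparg knockouts Cadps had 5.94, 3.39, 5.46 and 11.4 CPM in males, against 0, 0.376, 0.143 and 0.356 CPM in females. In Tbet knockouts Cadps had 8.07, 15.7, 8.18 and 12.2 CPM in males, against 0, 0, 0.146 and 0 CPM in females. Control males had 7.29, 10.2, 4.21 and 4.46 CPM of Cadps, against 0, 0, 0 and 0.0752 CPM in control females. The spread among males was small: the highest male library was 4.63 times the lowest, compared with 5.76 times for Slc5a7 and 13.3 times for Cdhr2. Males over females, Cadps had a log2 fold change of 4.91 (SE 0.75) in Pparg knockouts and 7.38 (SE 0.89) in Tbet knockouts. Control females held 2 counts in all, so their ratio, 315-fold, has a counting interval of 86.7 to 2606 (95%, exact).

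Cadps2, the close relative of Cadps with the same role, ran the opposite way. It averaged 3.91 ± 2.19 CPM in control males and 19.5 ± 9.28 CPM in control females (SD, n = 4 each; log2 fold change −2.30, SE 0.47, adjusted p = 0.00198). Of 15 tested genes of regulated exocytosis, 1 was higher in control males (Unc13b, log2 fold change 0.56) and 2 were lower (Cadps2, and Vamp2 at −0.26), with a list median of −0.26. Chga, a granule protein with the highest fold change of the list at 1.27 (SE 0.60), was not called (adjusted p = 0.125).

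Cdhr2 encodes a protocadherin that links the tips of microvilli in gut and kidney epithelium, and lies on chromosome 13 from 54701463 to 54736662. In Pparg knockouts Cdhr2 had 5.10, 1.97, 1.52 and 10.6 CPM in males, against 0, 0.188, 0 and 0.259 CPM in females. In Tbet knockouts Cdhr2 had 1.37, 8.28, 1.28 and 17.0 CPM in males, against 0.330, 0.233, 0.0366 and 0.202 CPM in females. Control males had 1.94, 11.3, 2.71 and 6.50 CPM of Cdhr2, against 0, 1.94, 0.126 and 0.339 CPM in control females. A single control female, replicate 2, reached the level of the lowest males. The highest male, Tbet knockout replicate 4 at 17.0 CPM, was the library with the most epididymis and seminal vesicle markers. For Cdhr2 the log2 fold change of males over females was 5.90 (SE 1.01) in Pparg knockouts, 4.22 (SE 0.93) in Tbet knockouts and 3.59 (SE 0.86) in controls.

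Cdhr2 was highest in males that also held transcripts of its protein's partners in the microvillus, although the ranges overlapped. Cdhr5, the other cadherin of the tip link, and its anchors Ush1c and Anks4b summed to 258 to 1403 counts in 7 male libraries and to 0 to 16 counts in the other 5. Levels of Cdhr2 were 1.37 to 17.0 CPM in the 7 (median 8.28) and 1.28 to 2.71 CPM in the 5 (median 1.94), and females had 0 to 1.94 CPM. Of the 7, Tbet knockout male replicate 1, with the fewest partner counts (258) and 1.37 CPM, lay inside the range of the 5, and the other 6 lay above it. Other epithelial transcripts parted the same libraries, so the split is not particular to the microvillus partners. Epcam, an epithelial surface protein, was 7.56 to 86.0 CPM in the 7 and 0.142 to 0.899 CPM in the 5. The 12 markers of simple epithelium summed to 98.8 to 483 CPM in the 7 and 10.4 to 84.7 CPM in the 5. The 9 markers of motile cilia summed to 150 to 344 CPM and 68.2 to 97.4 CPM. The part of epithelial cells in the level of Cdhr2 was not tested. Slc5a7 was 31.7 to 182 CPM in the 7 males (median 85.9) and 33.0 to 109 CPM in the 5 (median 80.4), and Cadps 4.46 to 15.7 CPM (median 10.2) and 3.39 to 8.18 CPM (median 5.46), with overlap for both. Of 8 tested genes of the brush border complex 2, Anks4b and the microvillus protein Vil1, were higher in control males than in control females and 0 were lower, with a list median of 2.41. Anks4b averaged 3.14 ± 3.58 CPM in control males and 0.00940 ± 0.0188 CPM in control females (SD, n = 4 each; log2 fold change 7.14, SE 2.15, adjusted p = 0.0259). Control male replicates 2 and 4, both batch 2, had 7.25 and 5.04 CPM of Anks4b, and replicates 1 and 3 had 0.237 and 0.0467 CPM. Cdhr4 stood at the low end of the list with −2.33 (SE 1.48, adjusted p = 0.251).

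Pcp4 encodes a small protein that binds calmodulin and speeds its exchange of calcium, best known from Purkinje cells; the gene lies on chromosome 16 from 96467606 to 96525793. In Pparg knockouts Pcp4 had 0.189, 0, 0.0379 and 0.182 CPM in males, against 359, 26.1, 201 and 4.43 CPM in females. In Tbet knockouts Pcp4 had 0, 0.284, 0.662 and 2.26 CPM in males, against 162, 201, 96.5 and 75.6 CPM in females. Control males had 0, 0.124, 0 and 0.167 CPM of Pcp4, against 96.8, 60.8, 411 and 110 CPM in control females. All males were below all females, although Pparg knockout female replicate 4, at 4.43 CPM, came close to the highest male, Tbet knockout replicate 4. On the log2 scale, Pcp4 in males over females was −10.16 (SE 1.40) in Pparg knockouts, −7.73 (SE 1.14) in Tbet knockouts and −10.99 (SE 1.44) in controls. Pcp4l1, a related calmodulin binder, was lower in control males, at 12.1 ± 5.69 CPM, than in control females, at 89.4 ± 68.2 CPM (SD, n = 4 each; log2 fold change −2.46, SE 0.84, adjusted p = 0.0367). It was 1 of 3 genes lower, with Calm2 and Camk2g, among 10 tested genes of calmodulin and its neuronal partners, with 0 higher and a median of −0.19; Camk4 had the highest fold change, 0.81 (SE 0.59, adjusted p = 0.324).

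Rxfp1 encodes the receptor of relaxin and lies on chromosome 3 from 79641600 to 79737951. In Pparg knockouts Rxfp1 had 0.113, 0, 0.190 and 0 CPM in males, against 104, 5.48, 24.9 and 2.17 CPM in females. In Tbet knockouts Rxfp1 had 0, 0.284, 0.189 and 0.226 CPM in males, against 42.0, 57.5, 14.8 and 18.8 CPM in females. Control males had 0.0473, 0, 0.0467 and 0 CPM of Rxfp1, against 15.3, 7.97, 44.8 and 26.8 CPM in control females. No male reached 0.3 CPM and no female was under 2 CPM. For Rxfp1 the log2 fold change of males over females was −8.31 (SE 1.2) and −7.65 (SE 1.11) in the knockouts. Control males held 2 counts in all, and the level in control females was 1066 times theirs (95% counting interval 295 to 8808). Of the other relaxin family genes 5 were tested, and 2 ligand genes, Insl6 and Insl3, were higher in control males than in control females, with a list median of 0.52. Insl6 averaged 6.49 ± 1.75 CPM in control males and 2.22 ± 1.73 CPM in control females (SD, n = 4 each; log2 fold change 1.59, SE 0.44, adjusted p = 0.0120). The receptor gene Rxfp3, at the low end with −1.81 (SE 1.16), was not called (adjusted p = 0.255).

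Syndig1 encodes a membrane protein of excitatory synapses that binds AMPA receptors, and lies on chromosome 2 from 149830783 to 150004392. In Pparg knockouts Syndig1 had 0, 0, 0.0758 and 0.364 CPM in males, against 100.03, 5.03, 44.4 and 1.36 CPM in females. In Tbet knockouts Syndig1 had 0, 0.0711, 0.0945 and 0.601 CPM in males, against 60.9, 22.4, 21.8 and 8.28 CPM in females. Control males had 0, 0.248, 0 and 0.0417 CPM of Syndig1, against 47.8, 8.92, 119 and 7.90 CPM in control females. Every female was above every male. In Pparg knockouts and controls both batch 2 females (replicates 2 and 4) lay below both batch 1 females, and in Tbet knockouts replicate 4 did. Males over females, Syndig1 had a log2 fold change of −8.07 (SE 1.36), −7.49 (SE 1.28) and −9.0 (SE 1.41) in Pparg knockouts, Tbet knockouts and controls. Some exon positions of Syndig1 are shared with C530025M09Rik on the opposite strand, and whether the counting used strand is not given in the sources used here.

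Slitrk3 encodes a leucine-rich repeat protein that organises inhibitory synapses by binding receptor phosphatases, and lies on chromosome 3 from 73047066 to 73057953. Slitrk3 had 0 counts in all Pparg knockout males, against 21.7, 1.46, 13.2 and 0.259 CPM in Pparg knockout females. In Tbet knockouts Slitrk3 had 0, 0, 0 and 0.150 CPM in males, against 9.42, 9.45, 9.41 and 1.41 CPM in females. Control males had 0 counts of Slitrk3 in all 4 libraries, against 6.73, 4.99, 16.8 and 7.45 CPM in control females. The 12 males held 2 counts together, both in Tbet knockout male replicate 4. Against a floor of 3 counts over the 4 libraries, Slitrk3 was at least 213-fold lower in Pparg knockout males than in Pparg knockout females and at least 266-fold lower in control males than in control females. The ratio in Tbet knockouts was 341 (95% counting interval 93.9 to 2822).

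Ptpn5 encodes STEP, a phosphatase of striatal neurons that acts on the kinases Erk and Fyn, and lies on chromosome 7 from 47077795 to 47134026. In Pparg knockouts Ptpn5 had 0, 0.0419, 0.0758 and 0 CPM in males, against 70.1, 0.864, 10.8 and 0.842 CPM in females. In Tbet knockouts Ptpn5 had 0.102, 0.0355, 0.0473 and 0.451 CPM in males, against 7.93, 6.89, 10.6 and 1.82 CPM in females. Control males had 0.0947, 0.0620, 0 and 0.0833 CPM of Ptpn5, against 3.25, 3.17, 10.9 and 42.2 CPM in control females. Females spread widely, 83.3 times from lowest to highest, yet none reached down to a male. On the log2 scale, Ptpn5 in males over females was −8.85 (SE 1.69) in Pparg knockouts, −5.48 (SE 1.42) in Tbet knockouts and −8.03 (SE 1.57) in controls. Among 7 relatives and substrates of Ptpn5, 2 were higher in control males, the related phosphatase Ptpn7 and the kinase Mapk3, and 1 was lower, the substrate Fyn, with a median of 0.15. Ptpn7 averaged 10.5 ± 0.762 CPM in control males and 5.56 ± 3.0 CPM in control females (SD, n = 4 each; log2 fold change 1.05, SE 0.36, adjusted p = 0.0353), and the other relative, Ptprr, had −1.12 (SE 0.50, adjusted p = 0.101).

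Cntn1 encodes contactin, an adhesion protein of axons that pairs with Cntnap1 beside the nodes of myelinated fibres, and lies on chromosome 15 from 92051152 to 92341967. In Pparg knockouts Cntn1 had 0.113, 0.126, 0.265 and 0.0607 CPM in males, against 7.22, 1.84, 6.65 and 4.24 CPM in females. In Tbet knockouts Cntn1 had 0, 0, 0 and 0.376 CPM in males, against 5.45, 6.07, 5.86 and 6.16 CPM in females. Control males had 0.426, 0, 0.0467 and 0 CPM of Cntn1, against 4.41, 6.74, 10.04 and 8.43 CPM in control females. It was the steadiest of the female-high genes, with 5.45 times between its lowest and highest female library, where the others had 48.2 to 1498 times. For Cntn1 the log2 fold change of males over females was −5.02 (SE 0.99) in Pparg knockouts, −6.20 (SE 1.10) in Tbet knockouts and −6.01 (SE 1.05) in controls. Among 14 tested genes of the Slitrk, contactin and synapse adhesion list, 4 were lower in control males than in control females and 0 higher: Ptprz1, Cntnap1, Slitrk6 and Ptprs. The list median was −0.85, beside −0.04 over all genes, of which 13.6% were lower and 13.6% higher. Ptprz1, a receptor phosphatase that binds contactin, averaged 0.533 ± 0.245 CPM in control males and 4.92 ± 2.36 CPM in control females (SD, n = 4 each; log2 fold change −3.23, SE 0.63, adjusted p = 0.00132). Slitrk5, at the high end with 1.70 (SE 0.80), was not called (adjusted p = 0.122), and the 10 Schwann cell markers summed to 219 to 312 CPM in males and 267 to 451 CPM in females.

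Sptssb encodes a small subunit of serine palmitoyltransferase that raises its activity, and lies on chromosome 3 from 69819538 to 69861363. Sptssb had 0 counts in all Pparg knockout males, against 1.74, 31.7, 59.4 and 0.0647 CPM in Pparg knockout females. In Tbet knockouts Sptssb had 0, 0, 0 and 0.0752 CPM in males, against 0.0413, 6.89, 0.366 and 0.404 CPM in females. Control males had 0, 0.0620, 0 and 0 CPM of Sptssb, against 11.7, 0.0396, 1.04 and 0.150 CPM in control females. High values were found in a few females, and 3 females lay at or under the highest male. Males held 2 counts in all, 1 in each of 2 libraries. Against the floor of 3 counts, Sptssb was at least 707-fold lower in Pparg knockout males than in Pparg knockout females. The ratios with 1 count in the males were 87.0 in Tbet knockouts (95% counting interval 15.1 to 3482) and 196 in controls (34.8 to 7771).

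The other genes of the sphingolipid pathway were not sex-split in the direction of Sptssb: of 15 tested, 5 were higher in control males than in control females and 0 were lower, with a median of 0.26. They were the catalytic subunit Sptlc2, the regulator Ormdl3, the ceramide synthases Cers4 and Cers5, and the desaturase Degs1. Cers4 averaged 95 ± 28.6 CPM in control males and 41.4 ± 5.52 CPM in control females (SD, n = 4 each; log2 fold change 1.17, SE 0.15, adjusted p = 4.75e-05), and Cers3, at the low end, had −0.70. Sptssa, the other small subunit, averaged 69.8 ± 21.8 CPM in control males and 75.6 ± 23.3 CPM in control females (SD, n = 4 each; log2 fold change −0.12, SE 0.09, adjusted p = 0.336).

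Per length, Pcp4 was the highest of the 10 genes. On the authors' log2 FPKM scale (reads scaled to gene length and library size), levels had a median of 4.01 for Slc5a7, 0.61 for Cadps and 0.09 for Cdhr2 over the 12 males. Over the 12 females the medians were 7.46 for Pcp4, 3.45 for Syndig1, 3.27 for Rxfp1, 1.19 for Slitrk3, 1.08 for Ptpn5, −0.01 for Cntn1 and −1.17 for Sptssb. In females every pair of neighbours in this order overlapped in range: Pcp4 ran from 2.77 to 9.39, Syndig1 from −0.61 to 5.90, and Rxfp1 from −0.10 to 5.6. In males Slc5a7, from 2.63 to 5.19, lay above both Cadps, from −0.44 to 1.51, and Cdhr2, from −1.40 to 2.03.

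Within females the same libraries were high or low for most of the 7 genes. Pparg knockout female replicate 4 was among the lowest 3 of the 12 females for 7 of 7 genes and replicate 2 for 6 of 7. Pparg knockout female replicate 1 and control female replicate 3 were among the highest 3 for 6 of 7. Smooth muscle transcripts moved with them: Acta2, Myh11, Tagln, Cnn1, Des, Smtn and Actg2 summed to 463 to 1244 CPM in males and 958 to 13243 CPM in females. The 3 females with the least smooth muscle RNA were Pparg knockout replicates 4 and 2 and Tbet knockout replicate 4, at 958, 1522 and 2063 CPM. The 3 with the most were Pparg knockout replicate 1, control replicate 3 and Tbet knockout replicate 2, at 13243, 12493 and 8534 CPM. For 5 of the 7 genes every level in the 3 with the most was above every level in the 3 with the least, where 10.8% of all genes tested lay above in this way and 10.5% below. The 3 with the least were all batch 2 libraries, and 1 of the 3 with the most was. Pcp4 was 201 to 411 CPM in the 3 with the most and 4.43 to 75.6 CPM in the 3 with the least, Rxfp1 44.8 to 104 and 2.17 to 18.8 CPM, and Slitrk3 9.45 to 21.7 and 0.259 to 1.46 CPM. Ptpn5 was 6.89 to 70.1 and 0.842 to 1.82 CPM and Syndig1 22.4 to 119 and 1.36 to 8.28 CPM, while Cntn1 and Sptssb overlapped. In bulk tissue, fewer cells of a type and less RNA per cell cannot be told apart, and the part of smooth muscle RNA in these levels was not tested.

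**Figure D2:**
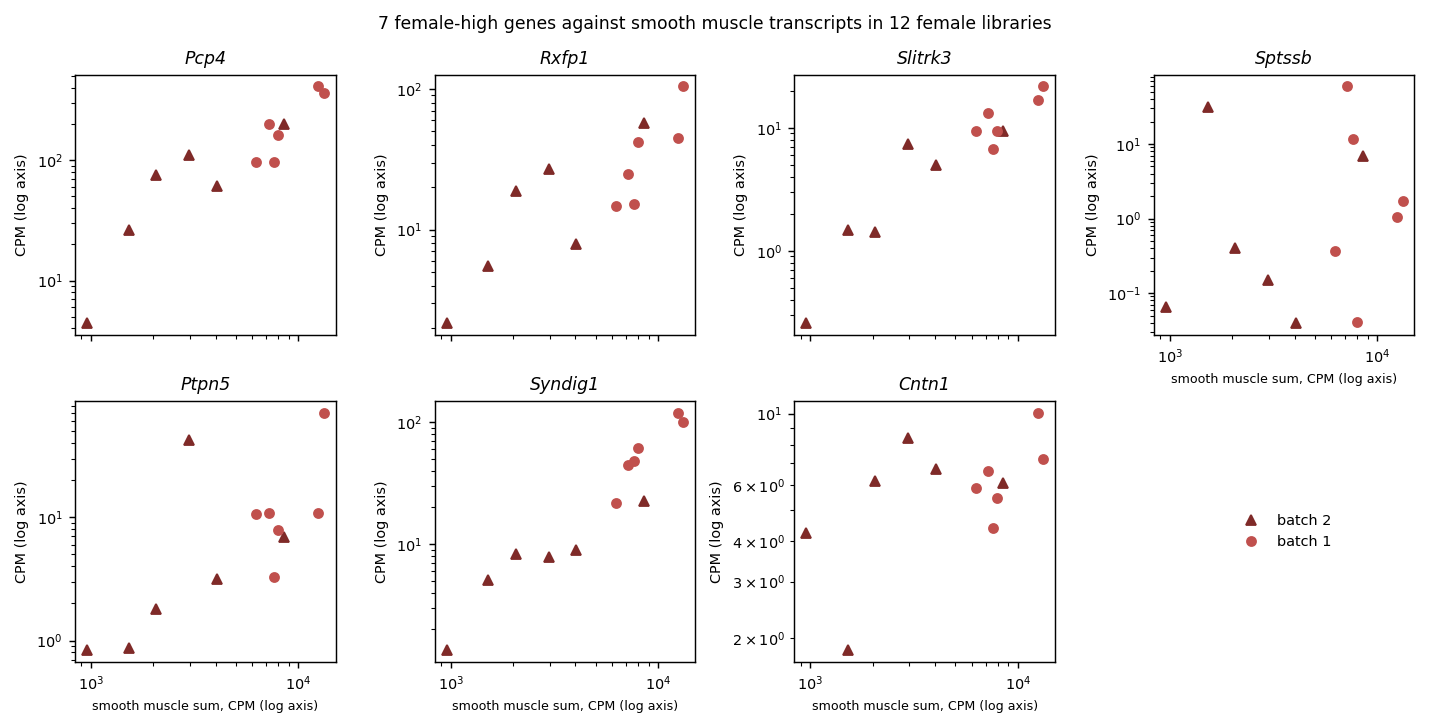
CPM of the 7 female-high genes, on log axes, against the summed CPM of 7 smooth muscle genes in the 12 female libraries; triangles are batch 2 and circles batch 1. Pcp4, Rxfp1, Slitrk3, Ptpn5 and Syndig1 are higher in all 3 libraries with 8534 to 13243 CPM of smooth muscle RNA than in any of the 3 with 958 to 2063 CPM, whereas Cntn1 and Sptssb overlap between these sets; the 5 libraries with the least smooth muscle RNA are all batch 2.

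Calls between batches within a sex were common over all genes, so those given here are not read as particular to the genes named. Smooth muscle RNA ran from 6276 CPM upward in batch 1 females and from 958 to 8534 CPM in batch 2 females, with overlap. Of the 7 female-high genes 1, Syndig1, was called between batches in females, with 8.98 CPM on average in batch 2 and 65.6 CPM in batch 1 (log2 fold change −3.09, SE 0.61, adjusted p = 0.00220, n = 6 each, edgeR). Over all 16763 genes tested in females, 44.3% were called. Pcp4 (−1.83, SE 0.80, adjusted p = 0.0869) and Slitrk3 (−1.88, SE 0.74, adjusted p = 0.0597) did not pass. In males Slc5a7 rose in batch 2, at 120 ± 43.4 CPM, against 61.8 ± 31.8 CPM in batch 1 (SD, n = 6 each; log2 fold change 1.01, SE 0.27, edgeR adjusted p = 0.00972). Cdhr2 rose as well (1.98, SE 0.54, adjusted p = 0.0101), and Cadps did not pass (0.48, SE 0.29, adjusted p = 0.193), where 53.6% of 16914 genes were called in males. Of the 7 males with brush border transcripts, 5 were batch 2 libraries, and without those 7 batch 2 is 1 library, so that a lost call says little. The values were then 1.59 for Slc5a7 (adjusted p = 0.0758) and 0.38 for Cdhr2 (adjusted p = 0.715). Each group holds both batches equally, so the contrasts of sex and of knockout are balanced over batch.

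Sptssb was highest in the females that held Krt5 and Ivl, transcripts of squamous epithelium. Krt5, a keratin of basal cells, was 18.4 to 116 CPM in 4 females and 0 to 0.404 CPM in the other 8. Sptssb was 6.89 to 59.4 CPM in those 4 and 0.0396 to 1.74 CPM in the other 8, with no overlap. Ivl, a protein of the horny envelope, was 2.78 to 14.9 CPM in the 4 and 0 to 0.808 CPM in the 8. The 4 were Pparg knockout replicates 2 and 3, Tbet knockout replicate 2 and control replicate 1, so both batches and all genotypes were among them. Krt14, another basal keratin, did not part the libraries this way: the 4 had 1.16, 2.53, 0 and 1.16 CPM in the same order, and the other 8 had 0.0793 to 0.991 CPM. Tbet knockout male replicate 4 had 11.2 CPM of Krt5 with 1 count of Sptssb and 0 of Ivl. The 12 markers of simple epithelium, Epcam among them, parted the same females without overlap. They summed to 341, 493, 152 and 1512 CPM in the 4, in the order above, and to 43.0 to 117 CPM in the other 8. The link is thus not particular to squamous transcripts. The part of epithelial cells of any kind in the level of Sptssb was not tested.

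**Figure D3:**
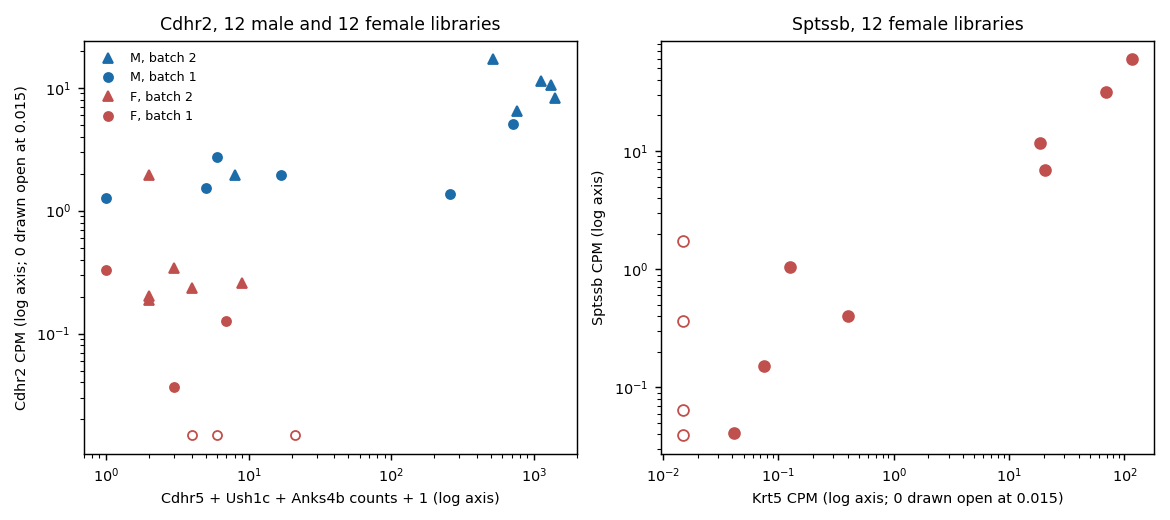
Left, Cdhr2 CPM against the summed counts of Cdhr5, Ush1c and Anks4b (plus 1) in 12 males (blue) and 12 females (red); right, Sptssb CPM against Krt5 CPM in the 12 females; all axes are log and open symbols are 0. Cdhr2 is at 1.37 to 17.0 CPM in the 7 males with 258 to 1403 brush border counts and at 1.28 to 2.71 CPM in the other 5, so that 1 of the 7 lies within the lower range, and Sptssb is above 6 CPM only in the 4 females with Krt5 at 18.4 CPM or more.

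Traces of the genes in the other sex were concentrated in a few libraries. Among females, Slc5a7 had 315 and 80 counts in Pparg knockout replicates 4 and 2 and 121 counts in Tbet knockout replicate 3, where the other 9 had 0 to 9 counts. Those 3 libraries also held 25 of the 30 Cadps counts of all females, 11, 10 and 4. Their 4 Y-linked genes summed to 14, 8 and 2 counts, where the other 9 females had 1 to 7. Scaled to library size these sums were 0.453, 0.301 and 0.0732 CPM, inside the range of the other 9. Tbet knockout female replicates 2 and 4 were higher than each of them, at 0.817 and 0.606 CPM. Among males, Tbet knockout replicate 4 was the highest of 12 for 5 of the 7 female-high genes (Pcp4, Slitrk3, Sptssb, Ptpn5 and Syndig1) and for Xist. Its levels were 1.69% of the Tbet knockout female mean for Pcp4, 2.03% for Slitrk3, 2.12% for Syndig1, 6.63% for Ptpn5 and 2.86% for Xist. For Rxfp1 it was 0.677%, and 1 other male was higher.

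Each of the 10 genes was higher in the same sex in all 3 genotypes, but they were picked on that contrast, so nothing is read from it. The filter on low counts within a sex was passed by 8 of the 10 in females and 3 in males. None of these passed the edgeR test in the contrasts of a knockout with controls of the same sex. The largest differences were in females, where Slc5a7 had higher means in both knockouts than the near absence of controls. In Pparg knockout females Slc5a7 averaged 3.30 ± 4.81 CPM, against 0.119 ± 0.0940 CPM in control females (SD, n = 4 each; log2 difference 4.55, SE 1.26, adjusted p = 0.298, edgeR quasi-likelihood test with Benjamini-Hochberg adjustment). In Tbet knockout females it averaged 1.45 ± 2.01 CPM, 4.19 higher than in control females on the log2 scale (SE 1.34, adjusted p = 0.122). These means rest on the 3 libraries named above, as 2 of 4 Pparg knockout females had 0 counts. Control females held 12 counts of Slc5a7 in all, at most 0.238 CPM per library. The gene thus passed the filter within females only through knockout libraries, where it is higher, so its p-values are given as description. Without Tbet knockout female replicate 3 the second value was 1.82, without Pparg knockout female replicate 4 the first was 3.12, and in batch 1 alone the first was −3.08. DESeq2 called Slc5a7 in both contrasts, with log2 fold changes of 4.40 in Pparg knockout females (adjusted p = 0.0206; 0.0206 to 0.880 over all alternatives) and 4.37 in Tbet knockout females (adjusted p = 0.0110; 0.0110 to 0.695).

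In Pparg knockout females 0 of 10 genes were called, where 0.0168% of 17824 genes were. Of the 10, 8 passed the filter on low counts within females; Cadps and Cdhr2 entered only through the males, so their values in females rest on few counts and are given as such. An unadjusted p under 0.05 was found for 1 of the 8, Slc5a7, and for 2128 of all genes. As stated above, Slc5a7 passed the filter only through knockout females, so this p is not read as support. Cadps had 24 counts over the Pparg knockout females and 2 over the control females (log2 fold change 3.17, SE 0.95, adjusted p = 0.298), and Cdhr2 13 and 62 counts. Pparg knockout females had 0.112 ± 0.132 CPM of Cdhr2 and control females 0.602 ± 0.905 CPM (SD, n = 4 each; log2 difference −2.18, SE 0.94, adjusted p = 0.375), and 49 of the 62 counts in control females came from replicate 2. The 7 female-high genes had log2 fold changes from −0.66 (Cntn1, 95% interval −2.36 to 1.03) to 3.03 (Sptssb, −0.63 to 6.69), and those of Pcp4 (−0.54, −2.23 to 1.14) and Rxfp1 (0.08, −1.73 to 1.90) lay between.

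In Tbet knockout females 0 of the 8 genes that passed the filter within females were called, where 1.22% of all genes were. Unadjusted p was under 0.05 for Slc5a7 alone among the same 8, with the same limit, and for 3088 of all genes. The female-high genes ran from −1.41 for Ptpn5 (95% interval −3.80 to 0.97) to 0.71 for Rxfp1 (−0.89 to 2.31), with Pcp4 at 0.01 (−1.40 to 1.41) and Cntn1 at −0.33 (−2.02 to 1.35).

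In males only the 3 male-high genes passed the filter on low counts within the sex, and the other 7 entered through the females, so the counts in males bear on 3 genes. In Pparg knockout males 0 of the 3 were called, as were 0% of all genes, with 0 of the 3 and 454 of all genes at an unadjusted p under 0.05. The 3 male-high genes had log2 fold changes of −1.06 for Slc5a7 (95% interval −2.58 to 0.46), −0.00 for Cadps (−1.25 to 1.25) and 0.13 for Cdhr2 (−1.41 to 1.67). Slc5a7 averaged 61.0 ± 30.6 CPM in Pparg knockout males and 117 ± 34.6 CPM in control males (SD, n = 4 each), and the 2 groups overlapped. In Tbet knockout males 0 of the 3 were called, where 0.00561% of all genes were, with 0 of the 3 and 780 of all genes at an unadjusted p under 0.05. There Slc5a7 had −0.43 (95% interval −1.93 to 1.08), Cadps 0.71 (−0.59 to 2.0) and Cdhr2 −0.06 (−1.49 to 1.38). The female-high genes were near 0 in all 3 groups of males, and Slitrk3 had 0 counts in both Pparg knockout and control males. In none of the 4 contrasts did a gene that passed the filter within the sex have all knockout libraries on one side of all control libraries. Over all genes, the shares with all knockout libraries above and all below were 1.35% and 1.09% for Pparg knockout females, 0.898% and 0.623% for Pparg knockout males, 2.83% and 2.14% for Tbet knockout females, and 0.752% and 0.763% for Tbet knockout males.

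**Figure D4:**
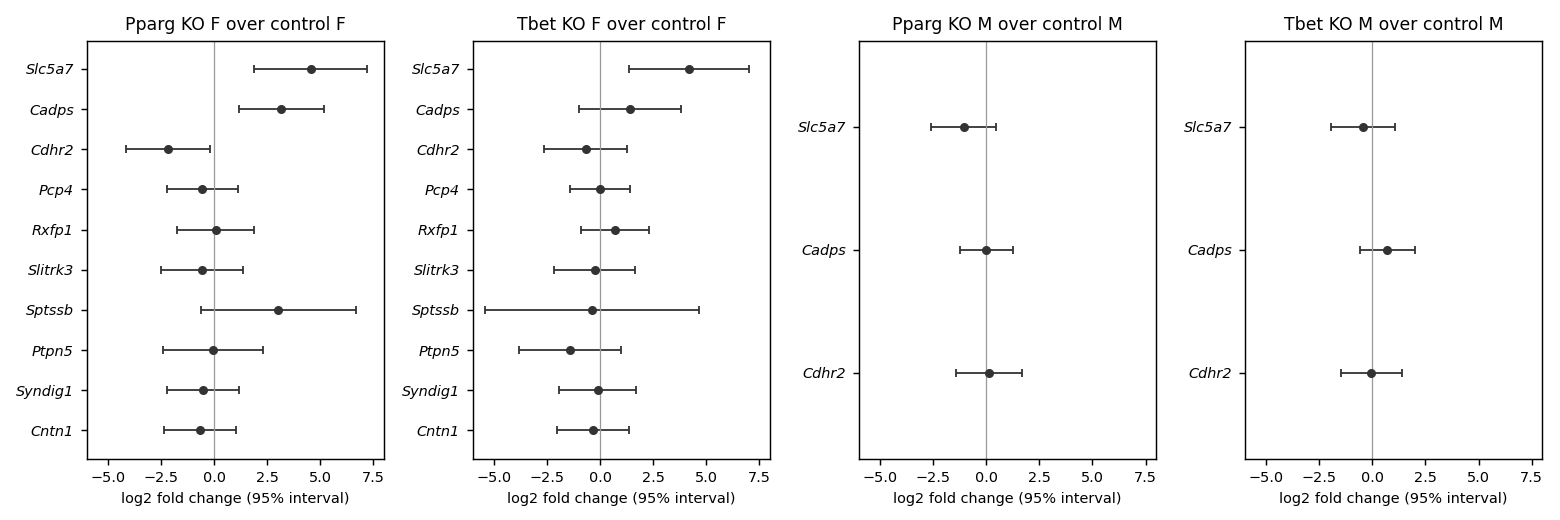
Log2 fold change of each knockout over controls of the same sex, with its 95% interval, for the 10 genes in females (first 2 panels) and for the 3 male-high genes in males (last 2 panels); the line at 0 is no change. In females the intervals of Slc5a7, at 4.55 and 4.19, lie above 0 without passing after adjustment over 17824 genes. Slc5a7 rests on few counts in control females and passed the filter within females only through knockout libraries. Cadps and Cdhr2 rest on few counts in females and passed the filter only through males.

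Of 83 genes tested in the 8 related lists, 1 was called in Tbet knockout females, where 1.22% of all genes were, and 0 in the other 3 knockout contrasts. Cntnap1, the partner of Cntn1 at the nodes, fell in Tbet knockout females to 17.5 ± 6.20 CPM, against 39.6 ± 7.80 CPM in control females (SD, n = 4 each; log2 fold change −1.21, SE 0.29, adjusted p = 0.0456), and all 4 knockout libraries lay below all 4 controls. The call was lost when any 1 of these 8 libraries was left out, with log2 fold changes of −1.34 to −1.11 (adjusted p from 0.0609 to 0.166; 0.00284 to 0.195 over all alternatives). Cntn1 itself had a log2 fold change of −0.33 in that contrast and was not called. The lists cover choline transport, the relaxin family, ceramide synthesis, calmodulin, exocytosis, the brush border, Ptpn5 relatives and synapse adhesion.

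Likeness of pattern was measured as the root mean square difference between log2 CPM profiles over the 24 libraries, each centred on its own mean, so that small values mean a like pattern; the libraries share sex and batch, and no p is given. For the male-high genes the nearest were Kdm5d (1.65) and Nxf3 (1.68) for Slc5a7, Nxf3 (0.964) and C7 (0.966) for Cadps, and C7 (1.07) and Col6a5 (1.13) for Cdhr2. Kdm5d is a Y-linked histone demethylase, Nxf3 an RNA export factor, C7 a complement protein and Col6a5 a collagen. Vtcn1, an inhibitory ligand of T cells, was among the nearest 2 for 4 female-high genes, Slitrk3 (0.839), Rxfp1 (0.959), Ptpn5 (1.15) and Syndig1 (1.16). Pgr, the progesterone receptor, was nearest to Syndig1 (0.879) and second for Pcp4 (1.63), after Xist (1.59). Posterior Hox genes, which pattern the lower body, were nearest to Cntn1 (Hoxc11, 0.853) and Ptpn5 (Hoxd11, 1.10) and second for Rxfp1 (Hoxa11, 1.01). The muscle calcium channel Ryr3 was second for Slitrk3 (0.925), and AW551984 second for Cntn1 (0.912). Sptssb stood apart with Ivl (1.07) and the water channel Aqp3 (1.22) as nearest.

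Among the 10 genes themselves, Slitrk3 and Ptpn5 were the closest pair, at 0.834. Slitrk3 was also the nearest member for Syndig1 (0.963), Rxfp1 (0.985), Cntn1 (1.2) and Sptssb (2.44), and Syndig1 was nearest to Pcp4 (1.24). Cadps and Cdhr2 were 1.58 apart and Slc5a7 was 1.60 from Cadps. Genes near to a sex-split profile are bound to be sex-split in part. Vtcn1 was 0.0837 to 1.2 CPM in males and 5.18 to 90.5 CPM in females, Pgr 0 to 0.728 and 1.62 to 67.2 CPM, and Hoxa11 0 to 1.59 and 5.33 to 57.1 CPM. C7 was 59.2 to 406 CPM in males and 2.26 to 17.8 CPM in females, and Nxf3 1.26 to 29.8 and 0 to 0.220 CPM. The sexes overlapped for Ryr3, at 0.140 to 8.19 CPM in males and 1.81 to 64.9 CPM in females, and for Aqp3, at 0.0355 to 0.945 and 0.0793 to 46.8 CPM.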

How the data were processed

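Whole visceral fat was measured by RNA sequencing in 24 libraries. Per the labels' protocols, a lipid tissue kit (RNeasy) gave the RNA and a TruSeq RNA kit the libraries. The deposited table holds raw counts for 27179 genes, made by the authors with featureCounts on GRCm38 (mm10), per the submitters' processing notes; 1029 genes have no symbol and were tested but not named. The log2 FPKM values were computed by the authors and are deposited as 24 tables of 15764 genes; limma is named in the submitters' processing notes, without its role. Not given in the sources used here: the aligner, the annotation, strand settings and versions.

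From the counts, edgeR 4.0.16 in R 4.3.3 kept 17824 genes (filterByExpr by group), scaled them by TMM and fitted group and batch on the 24 libraries together with its robust quasi-likelihood F test (17 residual degrees of freedom, common biological coefficient of variation 0.404). A gene was called at a p under 0.05 after Benjamini-Hochberg adjustment across the 17824 genes. The 2 knockouts were set against the same control libraries. The 10 genes and all lists were chosen with earlier results of these data known, and the tests of batch within a sex and the sets of libraries by brush border, Krt5 or smooth muscle transcripts were chosen after the values were seen. Named beside the 10 genes are, from each list, the genes called in a knockout contrast and the highest and lowest fold change of control males over control females, and for likeness the nearest 2 genes (prior count of 2); other genes named were chosen after their values were seen. No value column was left unmapped, and no 2 libraries were identical. Replicate numbers beyond batch did not pair libraries: with group and batch removed, same-numbered libraries had a median correlation of −0.09 (13 of 60 pairs over 0.1), and other libraries of the same batch one of −0.11 (12 of 60).

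Folds against a group with 0 counts used a floor of 3 counts over the group. Reads are not independent molecules, so the 95% intervals of ratios and the floors cover counting error only. Alternatives used DESeq2 1.42.0, limma 3.58.1 (voom, and limma on the log2 FPKM), other scaling, no filter, other batch terms, 1 batch alone, 1 sex alone, and each library left out. The scripts were tested on simulated data. For control female replicate 1 the title (batch 1) and the source name (batch 2) disagree, and the title was followed. That source name also carries the number of another replicate, so the identity of this library is not certain. Promoter sequences come from RefSeq on GRCm38.p6, and positions from the RefSeq gene table of the same build.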

Additional observations from a re-analysis of the deposited data

Results flagged for a closer look

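In 57 groups of 4 libraries, 1 library of a gene stood apart in 7. The rule was a gap of more than 0.829 of the group's range on the log2 CPM scale. Chance gives about 1 in 20 groups for normally distributed values only. Groups with counts near 0 are not of that kind, so the 7 are not set against this rate. Slitrk3 in Tbet knockout female replicate 4 had 1.41 CPM, against 9.41 to 9.45 CPM in the other 3 (gap 0.997). The other 6 are single libraries with a few counts where the other 3 had 0, so each gap is 1 of the range by construction. They are Slitrk3 (2 counts), Sptssb (1 count) and Cntn1 (5 counts) in Tbet knockout male replicate 4, Sptssb in control male replicate 2 (1 count), Cadps in Tbet knockout female replicate 3 (4 counts) and Cadps in control female replicate 4 (2 counts).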

How the results depend on the processing

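Members called in the 4 knockout contrasts stayed at 0 under every alternative except DESeq2, which called 1, Slc5a7, in Pparg knockout females and 1, the same gene, in Tbet knockout females; leaving out any library gave 0 to 0. Counts over all genes depended more on the setting. In Pparg knockout females (3 called) they were 409 with DESeq2, 6 with voom, 69 in batch 2 alone, 1 with the batch from the source name, and 0 without the filter, without batch, in batch 1 alone, with females alone and without the 7 males; leaving out 1 library gave 0 to 28. In Pparg knockout males (0 called) they were 27 with DESeq2, 1 with voom, 1 on log2 FPKM and 3 in batch 2 alone, and 0 to 1 with a library left out. In Tbet knockout females (218 called) they were 115 without the filter, 1264 with DESeq2, 474 with voom, 340 on log2 FPKM, 28 without batch, 619 and 119 in batch 1 and batch 2 alone, 42 with females alone and 42 without the 7 males, and 33 to 131 with a library left out. In Tbet knockout males (1 called) they were 25 with DESeq2, 6 in batch 1 alone, and 0 without the filter, without batch, with the batch from the source name, in batch 2 alone, with males alone and without the 7 males; a library left out gave 0 to 0. With a replicate block in place of batch no member was called, and the counts over all genes were 0, 128 and 0 in Pparg knockout females, Tbet knockout females and Tbet knockout males; the numbers do not pair libraries. Between batches in females, 3 members (Syndig1, Pcp4 and Slitrk3) were called with DESeq2, 3 with voom and 3 on log2 FPKM, 2 (Syndig1 and Slitrk3) with the batch from the source name, and 1 to 3 with a library left out: 3 without Tbet knockout female replicate 2 and 2 without control female replicate 1. In males 2 to 3 were called with a library left out, 3 (Cadps as well) without Pparg knockout male replicate 2, and 0 without the 7 males. Members without overlap between the sexes numbered 8 to 10 in controls (10 without control female replicate 2), 10 in Pparg knockouts and 9 to 10 in Tbet knockouts with a library left out. Over all alternatives, 125 knockout values and 3 batch values changed sign, with 0 of them called either way, and 0 of 570 values of males over females did, the contrast on which the genes were picked. The cause was not tested. Depth limits statements on the low sex, where most libraries have under 10 counts of a gene.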
